A study of Mus musculus with 16 samples.

Results

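Acod1, the enzyme that makes itaconate, was described together with 8 genes of the TCA cycle and of citrate use: Cs, Idh1, Idh2, Idh3a, Sdha, Sdhb, Slc25a1 and Acly. The 9 genes were chosen by name, through the gene symbols of the array's annotation, out of 19938 genes measured. Each lies on 1 feature of the array, and all 9 had a mean log2 intensity above 6.5, the limit under which a feature was treated as dim. RNA came from mouse macrophages grown from bone marrow with medium conditioned by L cells, which supplies M-CSF. All donor mice, for controls too, had the H3.3-HA knock-in, an epitope-tagged form of a replacement histone, and the macrophages were treated with interferon-gamma. Naïve and Pretreated cells each have 4 arrays at 0 h and 2 arrays at either later time, 3 h or 6 h. A token in the titles of the Pretreated arrays names earlier interferon. The sources used here give neither its dose, length and any rest after it nor the age and sex of the mice.

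The 16 arrays form 2 sets of 8 by the numbering in their titles. Set 1 contains all 6 h arrays and, of each 0 h group, replicates 1 and 2. Set 2 contains all 3 h arrays and the other 0 h replicates, 3 and 4. Array medians lay between 7.15 and 7.23 in set 1 and between 6.89 and 6.997 in set 2, so levels were compared only within a set. Neither later time has unstimulated cells, so in each change from 0 h the effects of interferon-gamma and of hours in culture cannot be told apart. Whether replicates are separate cultures or mice is not stated in the labels, and p-values then measure the spread of these samples alone, which may be technical.

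In the TCA cycle citrate synthase joins acetyl-CoA to oxaloacetate, citrate is turned through cis-aconitate into isocitrate, and isocitrate dehydrogenases and succinate dehydrogenase carry the oxidation on. Activated macrophages induce ACOD1, a mitochondrial enzyme that removes a carboxyl group from cis-aconitate and so draws itaconate from the cycle, and itaconate inhibits succinate dehydrogenase. Citrate can also leave the mitochondrion through the carrier SLC25A1, and in the cytosol ATP citrate lyase cleaves it to acetyl-CoA, which feeds fatty acid synthesis and protein acetylation.

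Promoter sequences are shown for Acod1, Idh1 and Idh2, the genes that passed a test in the comparisons below. They are the 250 bases before an annotated start, from RefSeq on GRCm38.p6, 5′ to 3′ on the gene's own strand. The RefSeq table held 9 windows for 8 of the 9 genes, with Idh1 on 2 of them. The Acod1 stretch is chr14:103046762-103047011 on the plus strand, and its capitals mark a kB match, the letters GGANTTTCC read on the opposite strand. The Idh1 stretch is the first of its windows, chr1:65186480-65186729 on the minus strand. The Idh2 stretch is chr7:80115351-80115600 on the minus strand and lies within the gene's RefSeq interval, before a start inside it. The Idh1 and Idh2 stretches are all in lower case because none of the motifs described next was found in them.
Acod1: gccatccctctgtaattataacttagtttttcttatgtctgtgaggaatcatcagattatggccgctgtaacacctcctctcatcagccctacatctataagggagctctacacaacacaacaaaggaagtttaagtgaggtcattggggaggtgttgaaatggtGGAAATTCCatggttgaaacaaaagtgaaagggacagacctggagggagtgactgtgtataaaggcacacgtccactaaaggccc
Idh1: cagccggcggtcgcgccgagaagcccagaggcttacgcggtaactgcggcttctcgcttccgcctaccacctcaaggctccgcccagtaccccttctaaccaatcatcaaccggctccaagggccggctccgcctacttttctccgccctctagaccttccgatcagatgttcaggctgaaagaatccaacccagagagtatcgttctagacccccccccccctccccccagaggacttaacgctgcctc
Idh2: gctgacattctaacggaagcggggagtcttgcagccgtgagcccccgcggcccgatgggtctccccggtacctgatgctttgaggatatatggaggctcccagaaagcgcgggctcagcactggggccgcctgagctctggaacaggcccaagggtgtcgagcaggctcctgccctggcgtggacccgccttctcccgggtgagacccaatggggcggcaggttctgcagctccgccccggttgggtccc

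Motifs were searched on both strands in windows of 300 bases, which add the first 50 bases after the start. They were the ISRE core of interferon-response elements (GAAANNGAA), the NF-kB site kB (GGANTTTCC), the E-box (CACGTG), the core of the NRF1 site (GCGCANGCG) and a sterol element (TCACNCCAC). Acod1 held 1 kB match, from base -85 to base -77, and 1.25% of all 32851 windows held one. The windows of Acod1, Idh1 and Idh2 held no ISRE core, which 8.56% of all windows held. Sdha held 3 NRF1 cores, which started at bases -98, -55 and -10, against 6.25% of windows with at least 1. Slc25a1 held 1 E-box, from base -239 to base -234, a motif found in 7.15% of windows. Cs, Sdhb and Acly held none of these motifs, and the sterol element was found in 1.24% of all windows. GC content was 44.4% for Acod1, 61.6% for the first Idh1 stretch and 67.2% for Idh2, against a median of 52.4% over all stretches of that length. A match of letters is a description of the sequence and shows no binding.

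Macrophage identity of the samples was checked first. All 9 measured macrophage markers lay above the dim limit in every group, with group means of 10.57 to 13.88. All 4 NK cell markers and all 4 mast cell markers lay under it in every group. The mean of the 5 dendritic cell markers moved with time. It was 6.45 to 6.51 on Naïve 0 h arrays of set 1 and 7.52 to 7.55 at 6 h, and in Pretreated cells 6.84 to 6.98 and 7.67 to 7.80. Of these 5, 2 rose in Naïve cells at 6 h: Clec9a by 4.44 ± 0.39 (adjusted p = 9.87e-06) and Xcr1 by 1.10 ± 0.28 (adjusted p = 0.0153). Flt3, Siglech and Zbtb46 were not called there, with changes of -0.08, -0.05 and -0.12. Clec9a also rose in Pretreated cells at 6 h, by 3.62 ± 0.39 (adjusted p = 0.000201). At 0 h Clec9a was higher in Pretreated than in Naïve cells by 1.67 ± 0.28 (adjusted p = 0.00921). On the other marker lists the highest group mean of a single gene was 8.61 for T cells (Cd4) and 9.12 for B cells (Cd79b). It was 6.90 for neutrophils (Mpo), 8.02 for fibroblasts (Col1a1) and 9.09 for endothelium (Kdr). Means over a whole list reached at most 6.92, 6.62, 6.32, 7.41 and 7.45 on any array, in the same order. In bulk RNA a change in the number of cells of a type and a change in RNA per cell cannot be told apart. All 5 measured interferon check genes (Cxcl9, Irf1, Gbp5, Irf8 and Nos2) rose in Naïve cells at both times. The 3 h call of Nos2 was lost whichever of its 4 arrays was left out.

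Across the comparisons, calls among the 9 genes fell on Acod1, Idh1 and Idh2 alone. A call means an adjusted p under 0.05 by limma, with Benjamini-Hochberg adjustment over all 19938 genes. In Naïve cells at 3 h Acod1 rose and none fell, where 3.37% of all genes rose and 2.09% fell. At 6 h in Naïve cells Acod1 rose, and Idh1 and Idh2 fell, where 7.48% of all genes rose and 10.8% fell. In Pretreated cells at 3 h Acod1 rose and Idh1 fell, where 1.86% rose and 0.998% fell. The same pair was called at 6 h in Pretreated cells, where 2.89% rose and 2.76% fell. Before stimulation, Acod1 alone was higher in Pretreated than in Naïve cells, where 0.808% of all genes were higher and 0.155% lower. The median log2 change of the other 8 genes was -0.16 in Naïve and 0.01 in Pretreated cells at 6 h, beside medians over all genes of -0.01 and -0.03.

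**Figure D1:**
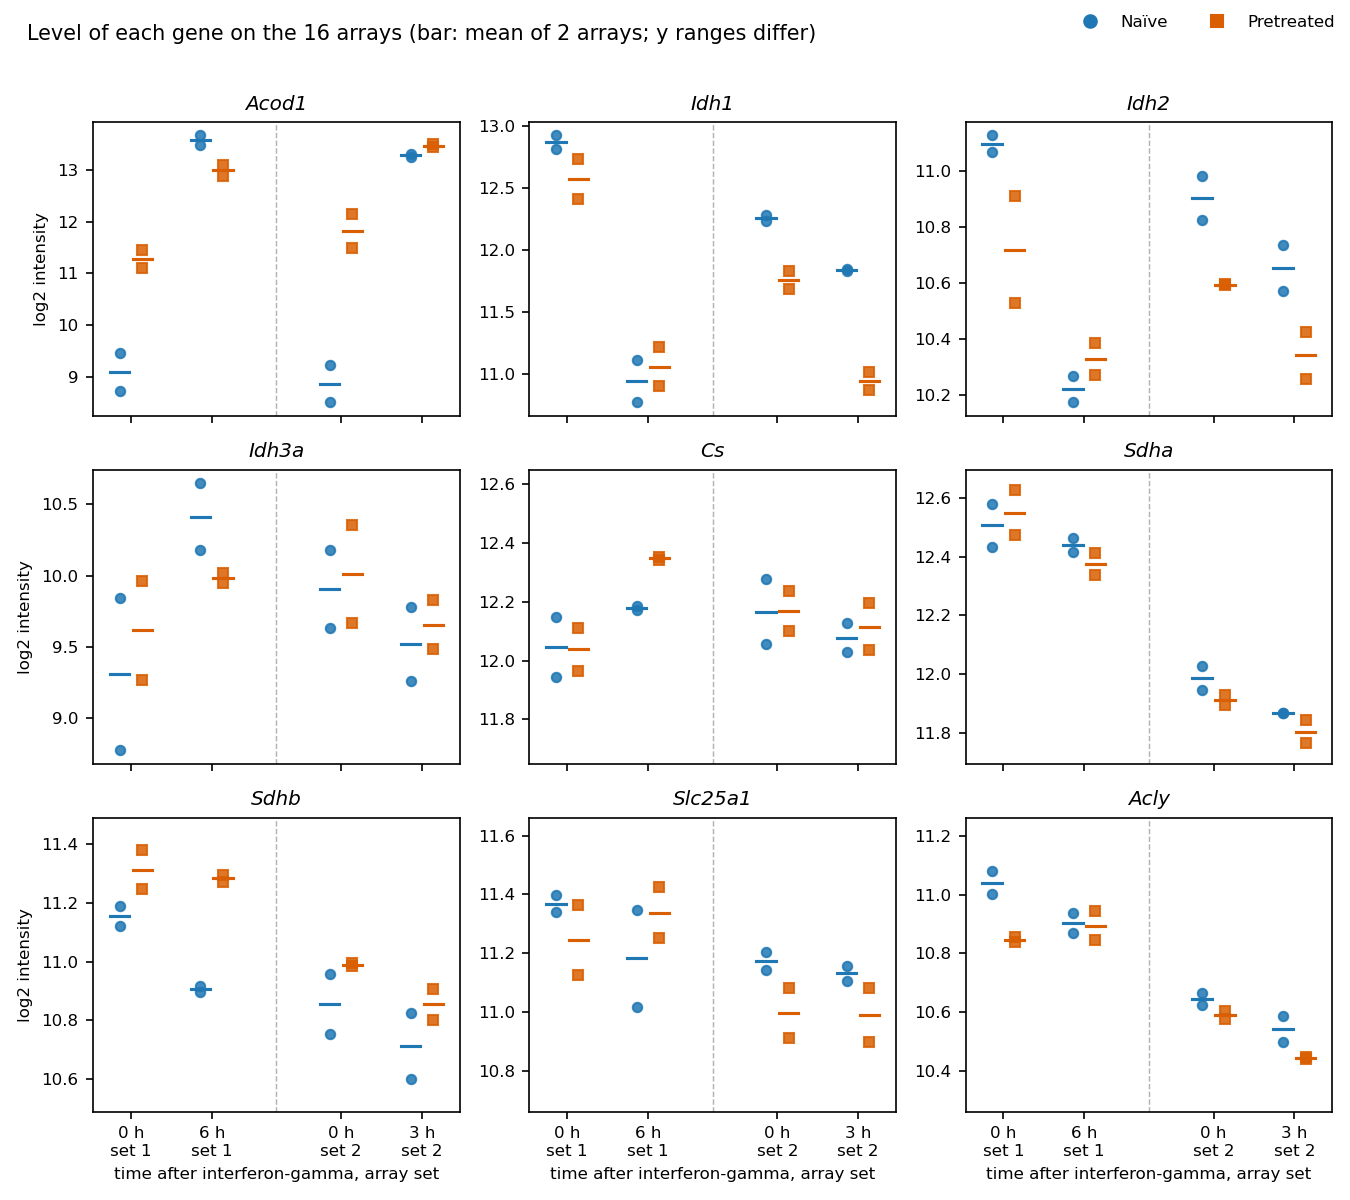
Log2 intensity (vertical axis, with its own range in each panel) of the 9 genes on each of 16 arrays, by time and array set; circles are Naïve and squares Pretreated arrays, and bars are means of 2 arrays. Acod1 lies between 8.50 and 9.46 on the 4 Naïve 0 h arrays and at 12.89 or more on all arrays at 3 h and 6 h, while Idh1 at 6 h lies at 11.22 or less.

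Acod1 (older symbol Irg1) had the largest change of the 9 genes in each change from 0 h. In Naïve cells at 0 h its log2 level was 9.46 and 8.72 on the arrays of set 1 and 8.50 and 9.23 on those of set 2. It was 13.25 and 13.31 at 3 h (set 2) and 13.67 and 13.48 at 6 h (set 1). All 4 stimulated arrays lay far above the 4 unstimulated ones. The rise was 4.42 ± 0.28 (SE) at 3 h, or 21.4-fold (adjusted p = 1.14e-06), and 4.48 ± 0.28 at 6 h, or 22.4-fold (adjusted p = 6.81e-07). The 3 h and 6 h rises differed by 0.07 ± 0.39 (adjusted p = 0.983), with a 95% interval of -0.79 to 0.92, in a comparison that also crosses the array sets. The SE comes from 1 fit to all 16 arrays, so a gene has the same SE in each change from 0 h.

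Pretreated cells started with more Acod1. Their 0 h levels were 11.10 and 11.46 in set 1 and 11.49 and 12.14 in set 2. All 4 of these arrays lay above all 4 Naïve 0 h arrays and below the stimulated ones. The difference from Naïve cells at 0 h was 2.57 ± 0.20, or 5.93-fold (adjusted p = 1.9e-05). It was 2.19 within set 1 (adjusted p = 0.00393) and 2.95 within set 2 (adjusted p = 0.000175).

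After stimulation the gap between Pretreated and Naïve cells was not called. Acod1 in Pretreated cells was 13.44 and 13.50 at 3 h and 13.10 and 12.89 at 6 h. Both 3 h arrays lay just above, and both 6 h arrays below, the Naïve arrays of the same time. Pretreated minus Naïve was 0.19 at 3 h, with a 95% interval of -0.41 to 0.79 (adjusted p = 1). It was -0.58 at 6 h, with an interval of -1.18 to 0.03 (adjusted p = 0.437). Within set 1 the levels thus ordered as Naïve 0 h, Pretreated 0 h, Pretreated 6 h and Naïve 6 h, and the last neighbours did not differ past the threshold. Within set 2 the order was Naïve 0 h, Pretreated 0 h, Naïve 3 h and Pretreated 3 h, again with no call between the last neighbours.

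The rise of Acod1 in Pretreated cells was 1.66 ± 0.28 at 3 h, or 3.16-fold (adjusted p = 0.0057), and 1.72 ± 0.28 at 6 h, or 3.29-fold (adjusted p = 0.00272). The 3 h call was lost without Pretreated 0 h replicate 3 (1.33, adjusted p = 0.0527) or Pretreated 3 h replicate 2 (1.63, adjusted p = 0.0574). The rise was smaller than in Naïve cells by 2.76 ± 0.39 at 3 h (adjusted p = 0.0203), where 0.0802% of all genes had a lower response. It was smaller by 2.77 ± 0.39 at 6 h (adjusted p = 0.0194), where 0.115% did. Acod1 was the only one of the 9 genes called in either test of the difference. Neither call is stable: leaving out 1 of the 8 arrays ended it for 6 of 8 arrays at 3 h and 5 of 8 at 6 h, with adjusted p up to 0.128 and 0.115. The number of genes called in either direction moved too, from 16 at 3 h to between 8 (set 2 fitted alone) and 31 (half-set block), and from 29 at 6 h to between 4 (without Naïve 6 h replicate 1) and 302 (half-set block).

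Acod1 lay near the upper end of the scale once induced. The share of genes with a higher log2 value was 29.8% to 38.5% on Naïve 0 h arrays and 2.63% to 9.70% on Pretreated 0 h arrays. It was 0.0853% to 0.401% on the stimulated Naïve arrays and 0.221% to 1.14% on the stimulated Pretreated arrays. Array maxima were 14.25 to 14.43. What a limit of the scale adds to the closeness of the induced levels was not tested.

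Idh1, the NADP-dependent isocitrate dehydrogenase of cytosol and peroxisomes, fell. In set 1 its log2 level in Naïve cells was 12.92 and 12.82 at 0 h and 10.77 and 11.11 at 6 h. In Pretreated cells of that set it was 12.41 and 12.74 at 0 h and 10.90 and 11.22 at 6 h. The 6 h arrays of both kinds of cells overlapped each other and lay more than 1 unit under all 0 h arrays of the set. The fall was -1.93 ± 0.15 in Naïve cells, 3.81-fold (adjusted p = 3.57e-06), and -1.51 ± 0.15 in Pretreated cells, 2.85-fold (adjusted p = 0.000114). The responses differed by 0.42 ± 0.21, with an interval of -0.05 to 0.88 (adjusted p = 0.619).

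At 3 h the Idh1 change was called in Pretreated cells alone. In set 2 Naïve cells had 12.23 and 12.28 at 0 h and 11.85 and 11.84 at 3 h, and Pretreated cells had 11.69 and 11.83 at 0 h and 11.02 and 10.87 at 3 h. Pretreated 3 h arrays were the lowest and Naïve 0 h arrays the highest. The Naïve 3 h and Pretreated 0 h groups nearly touched, at 11.84 and 11.83. The change was -0.42 ± 0.15 in Naïve cells (adjusted p = 0.167) and -0.81 ± 0.15 in Pretreated cells (adjusted p = 0.0107). The Pretreated call was lost without Pretreated 0 h replicate 4 (-0.74, adjusted p = 0.112), without Pretreated 3 h replicate 2 (-0.74, adjusted p = 0.104) and with array weights (adjusted p = 0.0593). The difference between these responses was -0.39 ± 0.21 (adjusted p = 1), with an interval of -0.86 to 0.07.

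Between Pretreated and Naïve cells at one time, none of the 9 genes was called at 3 h or at 6 h. Over all genes 0.015% were called at 3 h and 0.702% at 6 h, in either direction. At an unadjusted p under 0.05, limma gave 2 of the 9 genes at 3 h and 1 at 6 h. Those at 3 h were Idh1, for which Pretreated minus Naïve was -0.89 ± 0.15 with no overlap of arrays (adjusted p = 0.168), and Idh2, at -0.31 ± 0.13 (adjusted p = 1). Arrays of Acod1, Idh2, Sdha, Slc25a1 and Acly did not overlap at 3 h either. With the half-set of array positions as a block the adjusted p of Idh1 by limma was 0.0132. That block gave 76 calls over all genes at 3 h, against 3 without it. The gene at 6 h was Sdhb, higher in Pretreated cells by 0.38 ± 0.11 (adjusted p = 0.155). The share of all genes at an unadjusted p under 0.05 was not counted, so these counts have nothing to be set against.

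The 6 h fall of Idh1 in Naïve cells was larger than the 3 h change, with a difference of -1.51 ± 0.21 (adjusted p = 0.00646). In that test 1.05% of all genes were lower and 0.682% higher, and Idh1 was the only call among the 9. Time and array set cannot be told apart in this difference, and the Naïve 0 h levels of Idh1 themselves lay higher in set 1 than in set 2.

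Idh2, the NADP-dependent isocitrate dehydrogenase of mitochondria, fell in Naïve cells at 6 h. Its log2 level was 11.06 and 11.13 at 0 h and 10.17 and 10.27 at 6 h, both 6 h arrays well under the 0 h arrays. The fall was -0.88 ± 0.13, 1.84-fold (adjusted p = 0.000545). In Pretreated cells it was 10.91 and 10.53 at 0 h and 10.38 and 10.27 at 6 h, a change of -0.39 ± 0.13 (adjusted p = 0.135). Without Pretreated 0 h replicate 2, the lower of that pair, the change was -0.58. Without replicate 1 the 0 h level is 10.53 alone, nearer to the 6 h arrays, and the change is smaller. The size of this change thus depends on which 0 h array is kept. The responses at 6 h differed by 0.48 ± 0.19, with an interval of 0.08 to 0.89 (adjusted p = 0.417).

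In set 2 Idh2 was 10.82 and 10.98 in Naïve cells at 0 h and 10.57 and 10.73 at 3 h. In Pretreated cells of that set it was 10.59 on both 0 h arrays and 10.43 and 10.26 at 3 h. Each 3 h pair lay under its 0 h pair, by -0.25 ± 0.13 in both kinds of cells, and neither change was called (adjusted p = 0.439 and 0.456). At 0 h Pretreated minus Naïve was -0.34 ± 0.09 for Idh2 (adjusted p = 0.160) and -0.40 ± 0.11 for Idh1 (adjusted p = 0.143). The arrays did not overlap within either set for either gene. The same held for Acod1, Sdhb and Acly, and how many of all genes do so was not counted. Idh2 was called without Pretreated 0 h replicate 1 (-0.44, adjusted p = 0.0415), and Idh1 with the half-set block (adjusted p = 0.0334).

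Idh3a, a catalytic subunit of the NAD-dependent isocitrate dehydrogenase of the cycle, was the least precise of the 9 genes. Its log2 level in Naïve cells was 9.84 and 8.78 at 0 h and 10.65 and 10.18 at 6 h in set 1. The 6 h arrays lay above the 0 h arrays, which were 1 unit apart. The change was 1.10 ± 0.36, with an interval of 0.32 to 1.89, and missed the threshold (adjusted p = 0.0524). It was 1.64 without Naïve 0 h replicate 1 (adjusted p = 0.0129) and 0.57 without Naïve 0 h replicate 2 (adjusted p = 0.467). It also passed with an additive array-set term (adjusted p = 0.0323), with the half-set block (0.0159), with dim genes left out (0.0419) and with array weights (0.0319). The SE of Idh3a was larger than that of 97.4% of genes. In Pretreated cells of that set its level was 9.27 and 9.96 at 0 h and 9.95 and 10.02 at 6 h, groups that overlapped. Its levels in set 2, from 9.26 to 10.36 over all 8 arrays, overlapped between 0 h and 3 h in both kinds of cells.

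Sdha and Sdhb encode the flavoprotein and iron-sulfur subunits of succinate dehydrogenase, the enzyme that itaconate inhibits, and neither was called in any comparison. Sdha was 12.58 and 12.43 in Naïve cells at 0 h and 12.42 and 12.46 at 6 h, which overlap. Its change was -0.07 ± 0.10, with an interval of -0.29 to 0.15 (adjusted p = 0.816). In Pretreated cells it was -0.17 ± 0.10 (adjusted p = 0.521). The SE of Sdha was among the lowest 2.59% of all genes, so its intervals were narrow. Sdhb was 11.12 and 11.19 in Naïve cells at 0 h and 10.90 and 10.92 at 6 h, a change of -0.25 ± 0.11 (adjusted p = 0.173). In Pretreated cells it was 11.38 and 11.25 at 0 h and 11.30 and 11.27 at 6 h, a change of -0.03 ± 0.11 (adjusted p = 0.985). The 6 h Naïve arrays of Sdhb were the lowest of set 1, and the other 3 groups lay close together.

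Cs, Slc25a1 and Acly make citrate, export it from mitochondria and cleave it in the cytosol. None was called in any comparison. Cs was 11.95 and 12.15 in Naïve cells at 0 h and 12.17 and 12.19 at 6 h, a change of 0.13 ± 0.12 (adjusted p = 0.614). In Pretreated cells Cs was 11.97 and 12.11 at 0 h and 12.34 and 12.35 at 6 h, with no overlap. That change of 0.31 ± 0.12 had an interval of 0.05 to 0.57 and did not pass (adjusted p = 0.208). Slc25a1 ranged from 11.02 to 11.42 in set 1 and from 10.90 to 11.20 in set 2. Its changes at 6 h were -0.19 ± 0.14 in Naïve cells (adjusted p = 0.477) and 0.09 ± 0.14 in Pretreated cells (adjusted p = 0.933). Acly ranged from 10.84 to 11.08 in set 1, with both Naïve 6 h arrays under both Naïve 0 h arrays by a change of -0.14 ± 0.09 (adjusted p = 0.427). The SE of Acly was among the lowest 0.396% of all genes, and its interval at 6 h of -0.34 to 0.06 leaves out a 2-fold change in either direction.

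**Figure D2:**
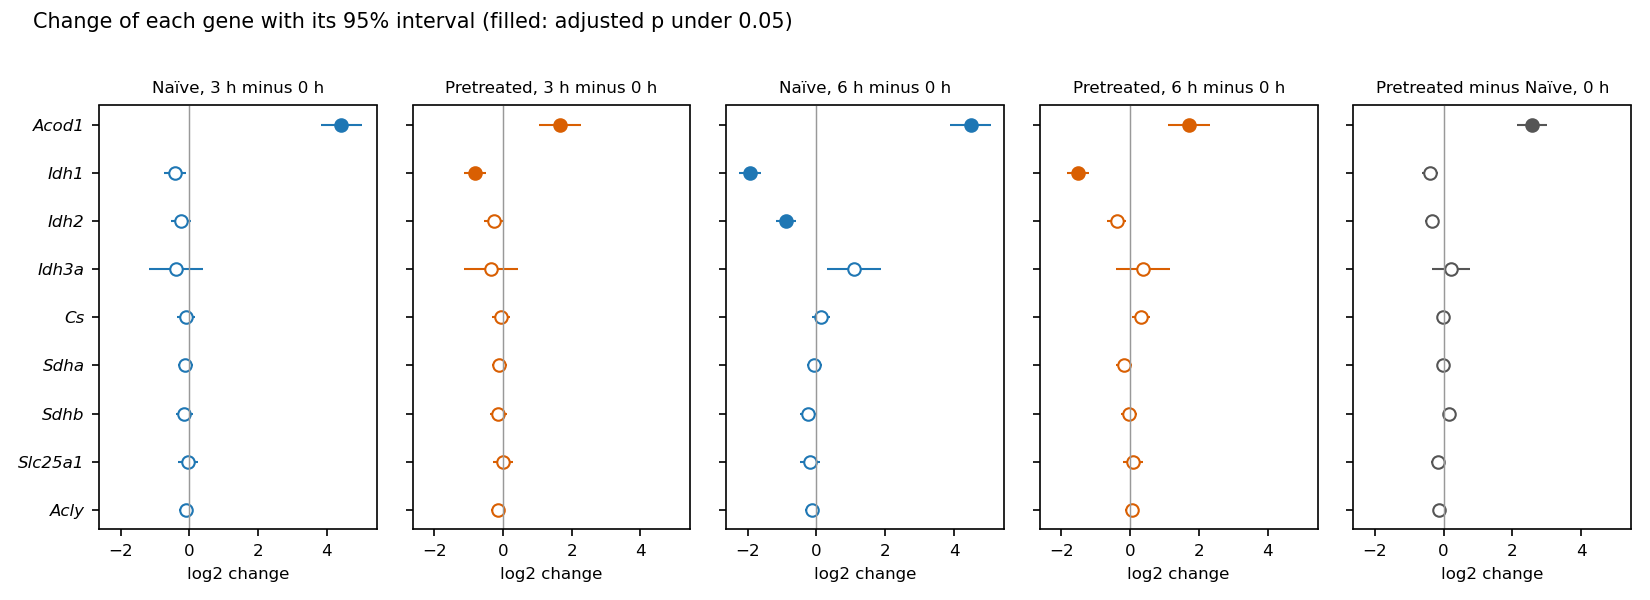
Log2 change (horizontal axis) of the 9 genes with its 95% interval in 5 comparisons; filled points passed an adjusted p of 0.05 by limma. Acod1 passes in all 5, with 4.42 and 4.48 in Naïve and 1.66 and 1.72 in Pretreated cells; Idh1 passes in 3 and Idh2 in Naïve cells at 6 h, at -0.88.

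The genes around the cycle were described through 9 lists of 118 genes, of which 110 were measured. In Naïve cells at 3 h 1 rose and 4 fell (0.909% and 3.64%, against 3.37% and 2.09% of all genes). At 6 h in Naïve cells 11 rose and 19 fell (10% and 17.3%, against 7.48% and 10.8%). In Pretreated cells at 3 h 2 rose and 2 fell (1.82% each, against 1.86% and 0.998%). At 6 h in Pretreated cells 5 rose and 3 fell (4.55% and 2.73%, against 2.89% and 2.76%). The rises in Pretreated cells at 3 h and the falls at 6 h thus had about the share of all genes. At 0 h 1 gene was lower in Pretreated cells and none higher, and in the difference of the Naïve responses, 6 h minus 3 h, 2 were higher (Cycs and Ppargc1b) and 1 lower (Glul). None was called between Pretreated and Naïve cells at 3 h or 6 h, where limma gave 5 and 20 of 110 at an unadjusted p under 0.05. None was called in the differences of responses either, with 1 at 3 h and 17 at 6 h at that unadjusted p. For these counts and those of single lists below, the share of all genes at that unadjusted p was not counted. Of the 30 calls in Naïve cells at 6 h, 15 held with any 1 array left out. Of the 8 in Pretreated cells at 6 h 2 did (Pdk3 and Ppargc1b), and of the 5 and 4 at 3 h none did. In the difference of the Naïve responses Ppargc1b held, while the call of Cycs was lost for 6 of 8 left-out arrays (adjusted p up to 0.0966) and that of Glul for 5 of 8 (up to 0.144).

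For the counts of single lists below, 7.48% of all genes rose and 10.8% fell in Naïve cells at 6 h. In Pretreated cells at 6 h 2.89% rose and 2.76% fell. No single list was tested against these shares. Of 14 other TCA cycle genes, 2 fell in Naïve cells at 6 h and none rose (median -0.03). Both are regulatory subunits of the NAD-dependent enzyme whose catalytic subunit is Idh3a: Idh3g fell by 0.77 ± 0.11 (adjusted p = 0.000449) and Idh3b fell by 0.41 ± 0.09 (adjusted p = 0.00693). They held with any 1 array left out, and Idh3a had its value of 1.10 in the opposite direction. No other TCA gene was called in Naïve cells at 3 h or in Pretreated cells at 3 h or 6 h, with 0, 1 and 4 of 14 at an unadjusted p under 0.05. Of 4 assembly factors of succinate dehydrogenase none was called at 6 h, with 2 in Naïve and 1 in Pretreated cells at that unadjusted p.

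Among 13 genes of pyruvate entry, 3 rose and 2 fell in Naïve cells at 6 h (median 0.15). Pyruvate dehydrogenase kinases, which switch off the pyruvate dehydrogenase complex, went in different directions. Pdk3 rose by 1.45 ± 0.21 (adjusted p = 0.000388) and Pdk1 by 1.03 ± 0.28 (adjusted p = 0.0221), whereas Pdk2 fell by 1.80 ± 0.29 (adjusted p = 0.000926). Pdk3 also rose in Pretreated cells, by 1.48 ± 0.21 (adjusted p = 0.00114), the only gene of the list called there. Pdha1, a subunit of the complex itself, rose by 0.68 ± 0.17 (adjusted p = 0.0132), and Pcx, which makes oxaloacetate from pyruvate, fell by 0.50 ± 0.11 (adjusted p = 0.00576). The calls of Pdk1 and Pdha1 were lost when an array was left out, with adjusted p up to 0.151 and 0.12.

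Of 11 genes of citrate use and fatty acid synthesis, 3 fell in Naïve cells at 6 h and none rose (median -0.27). Mid1ip1, which activates acetyl-CoA carboxylase, fell by 1.09 ± 0.23 at 3 h (adjusted p = 0.0130) and fell by 1.20 ± 0.23 at 6 h (adjusted p = 0.00266). Acaca, that carboxylase, fell by 0.66 ± 0.20 (adjusted p = 0.0416) and Me1, the cytosolic malic enzyme, fell by 0.65 ± 0.17 (adjusted p = 0.0179). In Pretreated cells Mid1ip1 fell at 3 h (-1.04, adjusted p = 0.0296) and Me1 at 6 h (-0.69, adjusted p = 0.0358). Of these only Mid1ip1 in Naïve cells at 6 h held with any 1 array left out.

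Of 10 mitochondrial carriers, 2 rose and 1 fell at 6 h in each kind of cell. Slc25a22, a glutamate carrier, rose in all 4 changes from 0 h, by 1.13 and 1.30 in Naïve and by 0.99 at both times in Pretreated cells (SE 0.20, highest adjusted p = 0.0181). The Naïve 6 h call held with any 1 array left out, whereas the Naïve 3 h call was lost without Naïve 3 h replicate 2, the Pretreated 3 h call without any of its 4 arrays and the Pretreated 6 h call without 2 of 4. Slc25a12, an aspartate and glutamate carrier, rose at 6 h by 0.76 ± 0.16 in Naïve cells (adjusted p = 0.00479) and by 0.74 ± 0.16 in Pretreated cells (adjusted p = 0.0166). Slc25a20, the carnitine and acylcarnitine carrier, fell at 6 h, with changes of -0.46 ± 0.11 in Naïve and -0.58 ± 0.11 in Pretreated cells (adjusted p = 0.0112 and 0.00844). The call of Slc25a20 was lost without 2 of the 4 arrays in Naïve and 1 in Pretreated cells, and that of Slc25a12 without 3 in Pretreated cells and none in Naïve cells. Slc25a13, the related aspartate and glutamate carrier, fell in Naïve cells at 3 h, with a change of -0.88 ± 0.21 (adjusted p = 0.0267), a call lost without 3 of the 4 arrays.

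Glul, which makes glutamine from glutamate, had the largest fall among 13 genes of glutamine and aspartate use. It fell by 1.63 ± 0.17 in Naïve cells at 6 h (adjusted p = 3.16e-05) and fell by 0.93 ± 0.17 in Pretreated cells (adjusted p = 0.00534). At 0 h it was lower in Pretreated cells, at -0.73 ± 0.12 (adjusted p = 0.00781). The Naïve 6 h call and the 0 h call held with any 1 array left out. Slc1a5, a glutamine transporter, fell in Naïve cells at 6 h, with a change of -0.60 ± 0.16 (adjusted p = 0.0168). The call of Slc1a5 held in 1 of 4 fits with an array left out. No gene of the list rose in Naïve cells at 6 h.

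The itaconate-linked list holds 18 measured genes that itaconate or its derivatives are known to bear on, most through NRF2 targets, ATF3 and NF-kB signalling or methylmalonyl-CoA. In Naïve cells at 6 h 7 fell and 2 rose (median -0.31). The antioxidant genes Hmox1 (-1.48 ± 0.34, adjusted p = 0.00814), Srxn1 (-0.98 ± 0.17, adjusted p = 0.00136), Gclm (-0.92 ± 0.25, adjusted p = 0.0240) and Gclc (-0.86 ± 0.23, adjusted p = 0.0173) fell. Of these 4 Srxn1 alone held with any 1 array left out. Mcee and Mmab, which serve the methylmalonyl-CoA pathway, fell, with changes of -0.70 ± 0.12 and -0.49 ± 0.10, and held. Keap1 and Nfkbiz rose by 0.41 ± 0.11 and 0.84 ± 0.26, and neither call held. In Pretreated cells at 6 h none of the 18 was called (median -0.26), with 7 at an unadjusted p under 0.05. At 3 h Gclc (-1.21, adjusted p = 0.00608) and Srxn1 (-0.82, adjusted p = 0.0128) fell in Naïve cells. In Pretreated cells at 3 h Gclc fell (-1.07, adjusted p = 0.0227). None of these 3 h calls held with every array left out in turn.

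Of 17 respiratory chain genes, 2 rose and 1 fell in Naïve cells at 6 h (median 0.01), where 7.48% of all genes rose and 10.8% fell. None of the 17 was called in Pretreated cells at 6 h, with 4 at an unadjusted p under 0.05. Cycs, the electron carrier cytochrome c, rose by 1.29 ± 0.18 (adjusted p = 0.000273) and held with any 1 array left out. Uqcrfs1 rose (0.39, adjusted p = 0.0483) and Ndufb8 fell (-0.44, adjusted p = 0.0488), and neither call held. Of 10 genes of mitochondrial biogenesis, Ppargc1b, a coactivator of mitochondrial genes, rose by 2.07 ± 0.15 in Naïve cells (adjusted p = 1.98e-06) and by 2.03 ± 0.15 in Pretreated cells at 6 h (adjusted p = 1.27e-05). Its partner Esrra rose by 0.78 ± 0.14 (adjusted p = 0.00225) and 0.55 ± 0.14 (adjusted p = 0.0454). Both 6 h calls of Ppargc1b held with any 1 array left out, as did that of Esrra in Naïve but not in Pretreated cells. Polrmt went the other way in Naïve cells at 6 h, by -0.34 ± 0.11 (adjusted p = 0.0439). That call was lost whichever of its 4 arrays was left out. Ppargc1b was also called in Pretreated cells at 3 h, by 0.68 ± 0.15 (adjusted p = 0.0280), a call that did not hold with every array left out. The median of the list was 0.08 in Naïve and 0.01 in Pretreated cells.

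**Figure D3:**
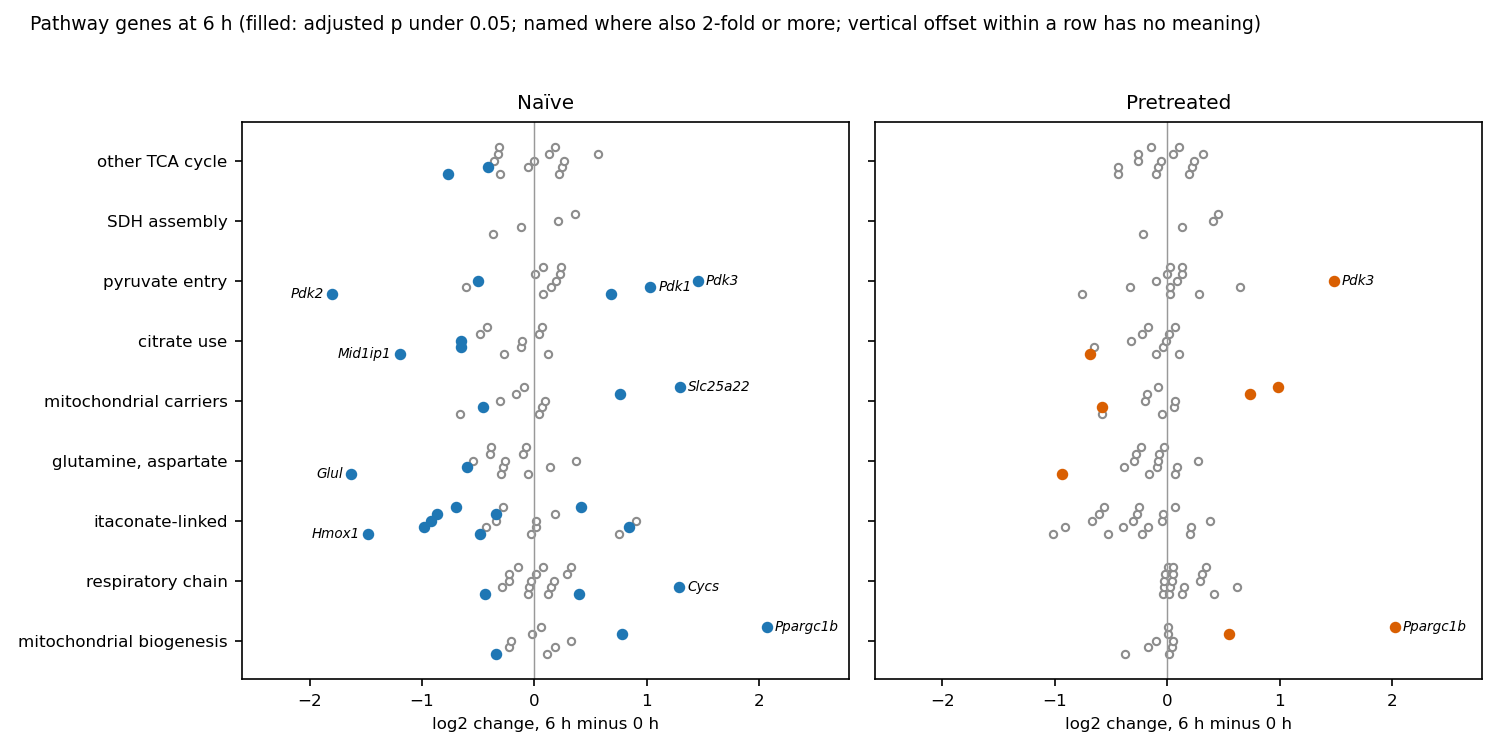
Log2 change at 6 h (horizontal axis) of 110 genes in 9 lists (rows) in Naïve and Pretreated cells; each point is a gene, and filled points passed an adjusted p of 0.05 by limma. In Naïve cells 11 genes lie filled to the right and 19 to the left; in Pretreated cells 5 and 3, with Ppargc1b at 2.03 the farthest right.

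Proliferation genes moved with the 6 h comparisons. Of 9 measured, 8 fell and 1 rose in Naïve cells (median -2.11), where 10.8% of all genes fell and 7.48% rose. In Pretreated cells 7 fell (median -1.68), where 2.76% of all genes fell. At 3 h none was called in Naïve or Pretreated cells. At 6 h Kif20a (1.37, adjusted p = 0.0129), Ccna2 (1.14, adjusted p = 0.0228) and Cdk1 (1.01, adjusted p = 0.0350) were higher in Pretreated than in Naïve cells. In that comparison 0.702% of all genes were called in either direction. None of these calls held with every array left out in turn. The part of proliferation, and of the rise in the dendritic cell marker Clec9a given above, in the 6 h changes of Idh1, Idh2 and the listed genes was not tested.

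The genes with a pattern most like that of each member were taken by Pearson r over the 16 arrays, after each set was centred on its own mean, among 13107 other genes. The arrays share groups and sets, so r describes these arrays only. Those most like Acod1 were Gm12250, Parp11, Nlrc5, Parp12, Irgm1 and Ifi205, with r from 0.984 to 0.991. All 6 rose with Acod1 in Naïve cells at 3 h and 6 h. They were picked for likeness over these same arrays, so this follows from the choice and is no separate result. In Naïve cells at 6 h the rise was 4.39 for Ifi205, 3.31 for Gm12250 and 1.02 for Parp12. Idh2 and Idh1 had r of -0.857 and -0.814 with Acod1 and of 0.894 with each other. The values for Acly, Sdha, Slc25a1, Sdhb, Cs and Idh3a with Acod1 were -0.691, -0.65, -0.404, -0.303, 0.268 and 0.354.

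Idh1 was most like Aldh9a1 (0.976), Pepd (0.968) and Hnmt (0.966), and Idh2 most like Trim47 (0.951), Ddb1 (0.949) and Lama3 (0.942). Cs was most like Ogdh (0.946), which encodes a subunit of the oxoglutarate dehydrogenase of the cycle, then Hcfc1 (0.925) and Lsm12 (0.897). Idh3a was most like Hnrnpab (0.949), Cct8 (0.948) and Endod1 (0.943). Sdha was most like Pdcl (0.956), and Sdhb most like Abi3 (0.955). Slc25a1 was most like Uap1l1 (0.901), and Acly most like Ctdp1 (0.879). Levels of the genes that were not called spanned a small range, so their likeness rests on small differences between arrays.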

How the data were processed

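The authors deposited log2 intensities of 35557 features of the Affymetrix Mouse Gene 1.0 ST array for 16 arrays. RNA was labelled with biotin by Affymetrix's own procedure, per the labels' protocols; how the values were normalized and summarised is not given in the sources used here. Gene symbols are those of the platform annotation, possibly old: 21789 features have 1 symbol, 1621 several and 12147 none, and 21698 symbols matched a current table by gene ID. The feature with the highest mean was used for each of 19938 genes.

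limma 3.58.1 (R 4.3.3) was fitted with 1 mean per group within array set, and contrasts lay within a set. Adjusted p-values are Benjamini-Hochberg over all genes, with 0.05 as the threshold and log2 6.5 as the dim limit. The number of arrays limits the precision. The fit was tested on simulated data.

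Named genes were all 9 members and, per list and comparison, up to 4 called genes with the largest change. Pcx, Mcee, Mmab, Keap1, Nfkbiz, Clec9a, Xcr1, Flt3, Siglech and Zbtb46 were named after their values were seen. 1 searched promoter motif is not reported here. Members and lists were chosen with earlier results of these data known. Alternatives were the half-set as a block, an additive array-set term, the array set alone, a dim filter, all features, feature means, quantile normalization, eBayes with trend and robust, array weights and each array left out. The 0 h difference within set 1 or set 2 was added after the data were examined. Figures were drawn with Python 3.11.15 and matplotlib 3.10.9.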

Additional observations from a re-analysis of the deposited data

Results flagged for a closer look

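In 3 results the effects of the same contrast differed between groups by a test of the difference itself. The rise of Acod1 from 0 h was smaller in Pretreated than in Naïve cells. The difference by limma was -2.76 on the log2 scale at 3 h (adjusted p = 0.0203) and -2.77 at 6 h (adjusted p = 0.0194). Neither call held with every array left out in turn. Each difference is the later gap between Pretreated and Naïve cells less their gap at 0 h. The higher 0 h level of Pretreated cells therefore enters it. The change of Idh1 in Naïve cells was lower at 6 h than at 3 h by -1.51 (adjusted p = 0.00646), in a comparison in which time and array set cannot be told apart.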

How the results depend on the processing

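Calls of Acod1 (all but Pretreated 3 h and the differences of responses), of Idh1 at 6 h and in the Naïve difference of 6 h and 3 h, and of Idh2 in Naïve cells at 6 h held under every alternative and left-out array. No value of the 9 genes turned its direction while called. With the half-set block 2 of the 9 genes were called at 0 h and 1 between Pretreated and Naïve cells at 3 h. Over all genes that 3 h comparison had 76 calls with the block and 3 without it. In the Naïve difference of 6 h and 3 h 2 were called with an additive array-set term and 2 with array weights. The second was Idh2 (adjusted p = 0.0422 and 0.0468 by limma). Over all genes these settings gave 1088 and 751 calls there, against 345 in the fit used above. With array weights 1 was called in Pretreated cells at 3 h, where 245 of all genes were called against 569. With set 2 fitted alone 0 were called in the difference of 3 h responses (Acod1, limma adjusted p = 0.121). Leaving out 1 array gave 0 to 1 calls in each difference of responses, 1 to 2 at 0 h and 0 to 2 in Pretreated cells at 3 h. Over all genes the half-set block gave the most calls, such as 4832 against 3653 in Naïve cells at 6 h, 684 against 192 at 0 h and 845 against 140 between Pretreated and Naïve cells at 6 h. The fewest were 2217 (without Naïve 6 h replicate 1), 54 (set 1 only) and 13 (without Pretreated 6 h replicate 2). The half-set is read from array positions in the titles, which the labels do not describe as a pairing. The deviations of arrays of the same half-set correlated across genes at 0.152 to 0.662 over 6 pairs of groups in set 1 and at 0.082 to 0.644 over 6 in set 2.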
